A study of Mus musculus with 16 samples.

Results

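The genes described here move protons and bicarbonate across membranes or make bicarbonate. They comprise the subunits of the vacuolar proton pump (symbols starting Atp6v or Atp6ap), the Slc4, Slc9 and Slc26 carrier families, the carbonic anhydrases (Car and a digit) and the channel genes Hvcn1 and Cftr. Members were taken by these symbols alone, which also brought in 1 adaptor gene, 2 scaffold genes, 2 pseudogenes and 1 neighbour gene whose symbols begin the same way. Car4, a marker of lung capillaries, was left out. This gave 78 of the 53647 genes listed, of which 60 reached at least 1 TPM in at least 4 libraries and were tested among 17003 genes. Of the other 18, 17 stayed under 1 TPM in every library and 1, Car12, reached 1.05 TPM in a single library.

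The vacuolar proton pump (V-ATPase) couples ATP hydrolysis in its cytosolic V1 sector to rotation of a proteolipid ring in its membrane V0 sector, and so acidifies lysosomes, endosomes and secretory vesicles. Macrophages and osteoclasts also place it on the cell surface, and alveolar type 2 cells use it in the lamellar bodies that store surfactant. Carbonic anhydrases interconvert carbon dioxide and bicarbonate, Slc4 and Slc26 carriers move bicarbonate, and Slc9 carriers exchange sodium for protons. In the lung these proteins set the pH of airway liquid, of cells and of phagocytic vesicles.

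RNA was sequenced from whole mouse lungs in 4 groups of 4 libraries. These were control lungs, lungs given bleomycin, and lungs given bleomycin plus 1 of 2 adenoviruses, labelled Ad-GFP (for green fluorescent protein) or Ad-ATP12A. Bleomycin damages alveoli and leads to scarring, and Atp12a encodes the catalytic subunit of a P-type pump that exchanges protons for potassium. All groups other than control therefore had bleomycin, and both adenovirus groups had a virus, while the control and bleomycin labels name no virus. Each group held 2 libraries from each of 2 batches, written as b1r1, b1r2, b2r1 and b2r2 for batch and replicate. Not stated in the labels are strain, age, sex, dose, day of collection, control vehicle, virus promoter, species of the transgene, and whether replicates came from separate animals, so p-values measure the spread between libraries. Values are TPM, an abundance per transcript length scaled to each library's total, so levels can be set side by side between genes, and the depth of the libraries is unknown. Means are given ± SD over 4 libraries. Where 4 values are given for a group, they are in the order b1r1, b1r2, b2r1 and b2r2. Changes are log2 fold changes of TPM + 1 from limma with batch as a term, and a gene passed at a Benjamini-Hochberg adjusted p under 0.05 over the 17003 genes. In bulk tissue, fewer cells of a type and less RNA per cell cannot be told apart.

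Atp12a itself, which is not among the 78 genes, lay at 5.13, 2.96, 29 and 25.7 TPM in the Ad-ATP12A libraries and at 0.2 TPM or less in the other 12. The club cell gene Scgb1a1 was under 1000 TPM in 3 libraries (control b2r1, bleomycin b2r2 and Ad-GFP b1r1) and at least 24870 TPM in the other 13, a difference the labels do not account for. The counts below are therefore also given without these 3 libraries. Xist, a marker of female cells, was at 10 TPM or more in 6 libraries, 3 of them in the Ad-ATP12A group and 1 in each other group. Differences of the Ad-ATP12A group from another group are therefore partly mixed with Xist.

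In bleomycin lungs the main ring subunit of the proton pump, the pendrin and Slc26a6 anion exchangers, the proton channel Hvcn1 and the sodium-proton exchanger Slc9a5 rose against control, and the lung isoform Atp6v1c2 and the scaffold Slc9a3r2 fell. Of the 60 genes tested, 17 passed (28.3%), 14 higher and 3 lower, where 18.8% of all 17003 genes passed, 13.2% higher and 5.61% lower. The median log2 fold change of the 60 was 0.19, beside 0.047 over all genes. For 16 of the 60 every bleomycin library lay above every control library, and for 6 every one lay below, beside 23.4% of all genes without overlap (16.5% above and 6.92% below). Each of the 17 kept its direction within either batch, but they were called from these same libraries, so this is no separate support. The split of calls depended on scaling: 10 rose and 6 fell after either quantile normalization or median-ratio scaling. The shares of all genes that rose or fell under these scalings are not given, so this split is not read as particular to these genes.

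The number of calls was sensitive to single libraries. It was 11 without control b1r1, 10 without control b1r2, 5 without bleomycin b1r1, 9 without bleomycin b1r2 and 7 without bleomycin b2r2. The 5 genes that passed in every fit with a library left out were Slc9a5, Atp6v0c, Slc26a6, Atp6v1b2 and Slc26a4. Without the 3 libraries low in Scgb1a1, 5 genes passed, all higher: Atp6v0c (adjusted p = 0.0196), Slc9a5 (0.026), Atp6v1f (0.0279), Atp6v0e (0.0308) and Slc26a6 (0.0413). In batch 1 alone 21 of the 60 passed and in batch 2 alone 0, each with 2 libraries a group. The share of all genes that passed in each of these fits is not given. The shifts in count are therefore not read as particular to these genes.

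**Figure D1:**
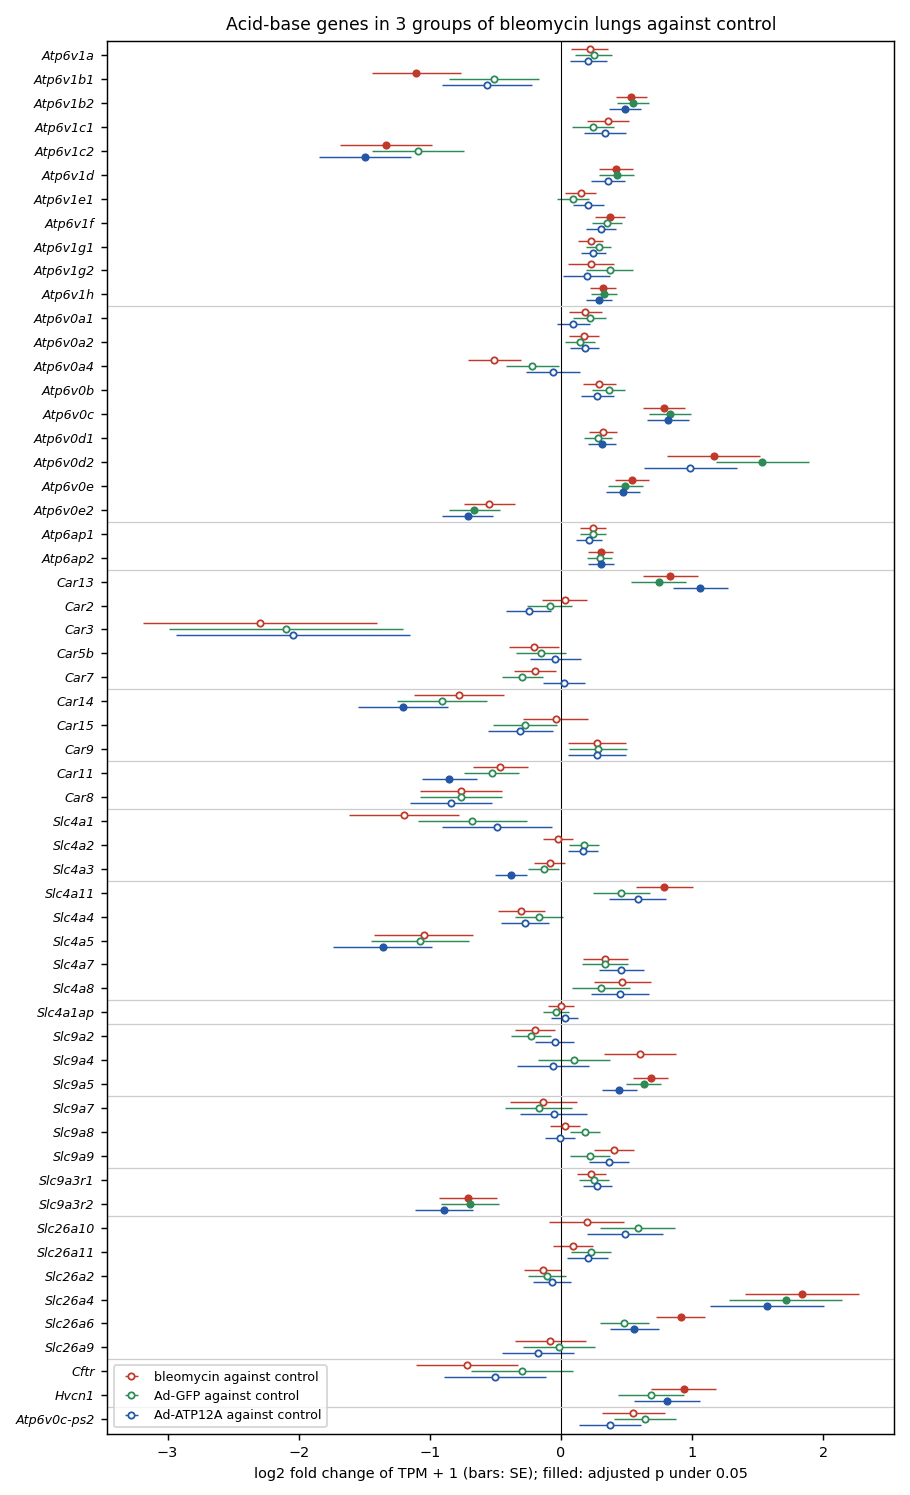
Log2 fold change of TPM + 1 against control for 58 of the 60 genes tested, ordered by role (grey lines part the roles), in bleomycin, Ad-GFP and Ad-ATP12A lungs; bars are SE from limma and filled points have an adjusted p under 0.05. The 3 groups share the 4 control libraries. Most V-ATPase subunits sit between 0 and 1, with Atp6v1c2, Atp6v1b1, Atp6v0e2 and Atp6v0a4 on the lower side, and Slc26a4 and Atp6v0d2 reach the highest values.

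Within the V-ATPase, 22 subunit and accessory genes were tested. In bleomycin against control 8 rose, 2 fell and 12 did not pass, beside 13.2% higher and 5.61% lower over all genes. Of the 22 log2 fold changes 18 were above 0, with a median of 0.27, beside 0.047 over all genes. The split was 4 higher and 3 lower after quantile normalization or median-ratio scaling, where the median was 0.16 or 0.20 and 17 or 18 values stayed above 0. The median over all genes was then −0.021 or −0.0097. With the 3 low-Scgb1a1 libraries left out, 3 rose and 0 fell. The median was 0.34 in batch 1 and 0.22 in batch 2, beside 0.0096 and 0.10 over all genes tested in that batch alone. Of the 22, 8 rose and 1 fell in batch 1 alone, and 0 rose and 0 fell in batch 2 alone. The shares of all genes that passed in a single batch, after either scaling or without the 3 libraries are not given.

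In the V1 sector, Atp6v1b2, the widely expressed nucleotide-binding B subunit, was at 92.8, 86.3, 82.4 and 70.8 TPM in control and 127, 115, 114 and 128 TPM in bleomycin lungs. Every bleomycin library lay above every control library (log2 fold change 0.54 with SE 0.12 and adjusted p = 0.00875; 0.42 in batch 1 and 0.65 in batch 2). Its adjusted p was 0.00561 to 0.0363 with each library left out in turn, and 0.0523 with the 3 libraries of low Scgb1a1 left out. Its partner Atp6v1a, the catalytic A subunit, went from 70.8 ± 10.7 to 82.7 ± 13.5 TPM and did not pass (adjusted p = 0.302).

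The stalk and regulatory subunits Atp6v1f, Atp6v1h and Atp6v1d rose by smaller amounts. Atp6v1f, part of the rotor stalk, was at 109, 111, 137 and 108 TPM in control and 175, 167, 122 and 142 TPM in bleomycin lungs, with b2r1 of the bleomycin group under b2r1 of control (log2 fold change 0.37 with SE 0.11 and adjusted p = 0.035; 0.63 in batch 1 and 0.12 in batch 2). Atp6v1h, the regulatory H subunit, was at 50, 46.5, 59 and 53.7 TPM in control and 71.6, 63.7, 60.5 and 65.6 TPM in bleomycin lungs, with little space between the groups (log2 fold change 0.32 with SE 0.10 and adjusted p = 0.0362; 0.48 in batch 1 and 0.16 in batch 2). The rotor shaft gene Atp6v1d was at 43.9, 52, 53.5 and 59.3 TPM in control and 81.4, 76.1, 54.5 and 69.7 TPM in bleomycin lungs, with overlapping ranges (log2 fold change 0.42 with SE 0.13 and adjusted p = 0.041; 0.71 in batch 1 and 0.13 in batch 2). The Atp6v1f call ended without any 1 of 6 libraries (control b1r1, control b1r2, control b2r2, bleomycin b1r1, bleomycin b1r2, bleomycin b2r2), with an adjusted p from 0.0552 to 0.116. The Atp6v1h call ended without any 1 of 5 libraries (control b1r1, control b1r2, bleomycin b1r1, bleomycin b1r2, bleomycin b2r2), with an adjusted p from 0.0752 to 0.127. The Atp6v1d call ended without any 1 of 6 libraries (control b1r1, control b1r2, bleomycin b1r1, bleomycin b1r2, bleomycin b2r2, Ad-ATP12A b2r2), with an adjusted p from 0.0506 to 0.124. All 3 calls also ended after quantile normalization and after median-ratio scaling.

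Other V1 genes did not pass. Atp6v1g1, a peripheral stalk subunit and the V1 gene with the highest level in control lungs, was at 178 ± 5.08 TPM in control and 211 ± 33.8 TPM in bleomycin lungs (0.45 in batch 1 and 0.0043 in batch 2; adjusted p = 0.113). Its neuronal counterpart Atp6v1g2 stayed between 3.44 and 6.02 TPM in the control and bleomycin libraries, and Atp6v1g3, known from kidney, did not exceed 0.42 TPM in any library. Atp6v1e1 was at 174 ± 14.5 TPM in control and 194 ± 23.5 TPM in bleomycin lungs (adjusted p = 0.403).

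Both V1 genes that fell are tissue-restricted isoforms. Atp6v1c2, an isoform of the C subunit known from lung and kidney, was at 71.9, 76.3, 84.2 and 62.1 TPM in control and 24.3, 24.1, 49.3 and 22.4 TPM in bleomycin lungs, without overlap (log2 fold change −1.34 with SE 0.35 and adjusted p = 0.0186; −1.57 in batch 1 and −1.10 in batch 2). The call ended without any 1 of 3 libraries (bleomycin b1r1, bleomycin b1r2, bleomycin b2r2), with an adjusted p from 0.0557 to 0.0659, and with the 3 low-Scgb1a1 libraries left out (adjusted p = 0.0906). Atp6v1b1, the B isoform of proton-secreting epithelia, was low throughout, at 2.8, 3.94, 5.23 and 8.19 TPM in control and 1.75, 1.83, 1.33 and 1.79 TPM in bleomycin lungs (log2 fold change −1.10 with SE 0.34 and adjusted p = 0.0378; −0.64 in batch 1 and −1.57 in batch 2). Its call ended without any 1 of 7 libraries (control b1r2, control b2r1, control b2r2, bleomycin b1r1, bleomycin b1r2, bleomycin b2r1, bleomycin b2r2), with an adjusted p from 0.0514 to 0.0955, and without the 3 low libraries (adjusted p = 0.0908). Its log2 fold change was −0.81 without control b2r2.

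In the V0 sector, Atp6v0c, which forms most of the proteolipid ring that carries protons, was the most abundant gene of the 78 in bleomycin lungs. It was at 235, 236, 254 and 196 TPM in control and 476, 429, 324 and 372 TPM in bleomycin lungs. The lowest bleomycin library, b2r1, lay above the highest control library, also b2r1 (log2 fold change 0.79 with SE 0.16 and adjusted p = 0.00564; 0.94 in batch 1 and 0.63 in batch 2). The adjusted p ranged from 0.00335 to 0.0256 with each library left out. Atp6v0c-ps2, a pseudogene of it to which shared reads could be assigned, was at 2.66 ± 0.864 TPM in control and 4.32 ± 1.08 TPM in bleomycin lungs and did not pass (adjusted p = 0.119). The related ring subunit Atp6v0b was at 165 ± 17.6 TPM in control and 203 ± 33.6 TPM in bleomycin lungs, and its difference was 0.62 in batch 1 and −0.034 in batch 2 (adjusted p = 0.121).

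Atp6v0e, a small membrane subunit, was at 121, 139, 149 and 122 TPM in control and 222, 217, 154 and 187 TPM in bleomycin lungs, again without overlap (log2 fold change 0.54 with SE 0.13 and adjusted p = 0.0122; 0.75 in batch 1 and 0.33 in batch 2). That call ended without bleomycin b1r1 (adjusted p = 0.0502). Its isoform Atp6v0e2 was at 23.1 ± 2.53 TPM in control and 15.5 ± 1.9 TPM in bleomycin lungs, the opposite direction, and did not pass (log2 fold change −0.55, adjusted p = 0.0632), although it passed after quantile normalization (adjusted p = 0.04) and median-ratio scaling (0.0393).

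Atp6v0d2, the d isoform known from osteoclasts and macrophages, was at 42, 34.2, 17.1 and 20.7 TPM in control and 55.8, 54.2, 62.8 and 74 TPM in bleomycin lungs. The 2 batch 1 control libraries were higher than the 2 of batch 2, and all bleomycin libraries lay above them (log2 fold change 1.17 with SE 0.35 and adjusted p = 0.0349; 0.53 in batch 1 and 1.80 in batch 2). The call ended without any 1 of 5 libraries (control b2r1, control b2r2, bleomycin b1r1, bleomycin b1r2, bleomycin b2r2), with an adjusted p from 0.0718 to 0.0983, and with the 3 low-Scgb1a1 libraries left out (adjusted p = 0.146). The widely expressed Atp6v0d1 was at 77.3 ± 6.95 TPM in control and 96.4 ± 6.58 TPM in bleomycin lungs, just short of the threshold (log2 fold change 0.32, adjusted p = 0.0507). Of the a subunits, which hold the proton path, Atp6v0a1 (59.7 ± 8.42 TPM in control and 67.8 ± 7.66 TPM in bleomycin lungs), Atp6v0a2 (22.1 ± 1.59 TPM in control and 25.4 ± 4.87 TPM in bleomycin lungs) and Atp6v0a4 (4.07 ± 1.52 TPM in control and 2.46 ± 0.307 TPM in bleomycin lungs) did not pass.

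Atp6ap2, an accessory protein also known as the prorenin receptor, rose from 64 ± 2.33 to 79.4 ± 7.83 TPM (log2 fold change 0.30 with SE 0.10 and adjusted p = 0.0438; 0.21 in batch 1 and 0.40 in batch 2). This was the weakest of the 17 calls and ended without any 1 of 10 libraries (control b1r1, control b1r2, control b2r1, control b2r2, bleomycin b1r1, bleomycin b1r2, bleomycin b2r2, Ad-ATP12A b1r2, Ad-ATP12A b2r1, Ad-ATP12A b2r2), with an adjusted p from 0.0511 to 0.121; it also ended under both other scalings. Atp6ap1, the more abundant accessory gene, was at 137 ± 12.7 TPM in control and 163 ± 14.8 TPM in bleomycin lungs (adjusted p = 0.0982).

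**Figure D2:**
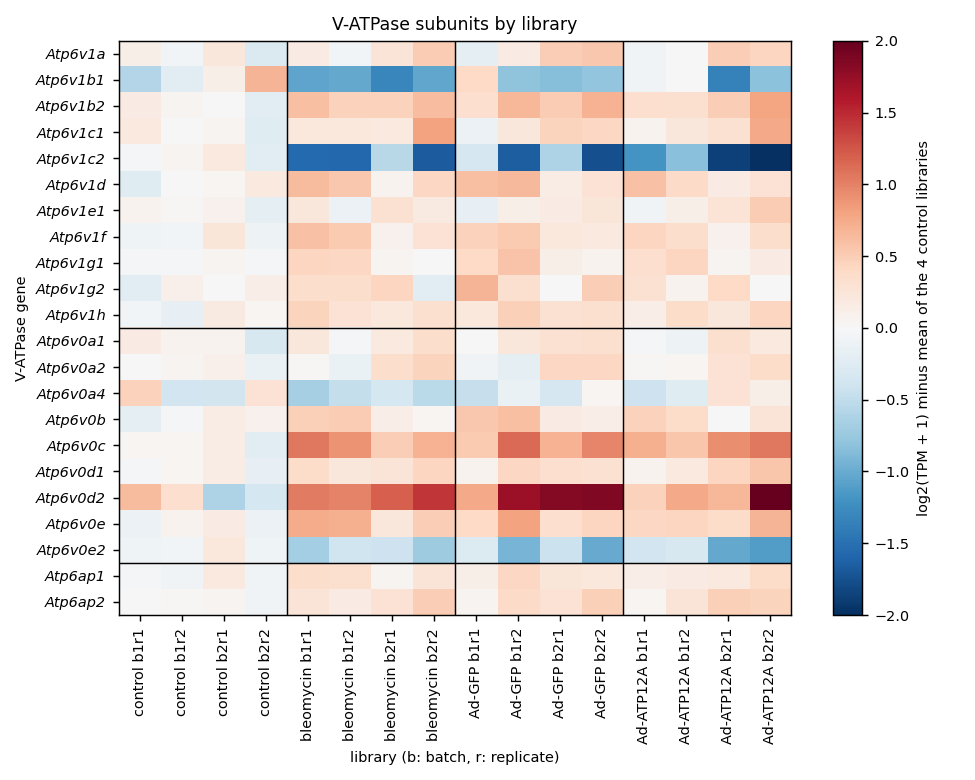
Heat map of the 22 tested V-ATPase genes (rows: V1 sector, V0 sector, accessory, parted by black lines) in the 16 libraries (columns, by group), as log2(TPM + 1) minus the mean of the 4 control libraries, with colours ending at −2 and 2. Red rows Atp6v0c, Atp6v0d2, Atp6v0e and Atp6v1b2 and blue rows Atp6v1c2 and Atp6v0e2 run across the 3 bleomycin groups, palest for Atp6v1c2 in Ad-GFP b1r1. The Atp6v1b1 row is blue in all 4 bleomycin libraries, red in Ad-GFP b1r1 (6.56 TPM) and near white in Ad-ATP12A b1r1 and b1r2 (4.46 and 4.67 TPM).

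Isoform shares, which rest on TPM ratios within a library and so do not depend on scaling between libraries, describe the same libraries another way and were not tested. Atp6v0d2 made up 35.7%, 30.2%, 16.6% and 23.1% of the d subunit TPM in control and 36%, 37.6%, 40.6% and 41.5% in bleomycin lungs, so the highest control library and the lowest bleomycin library nearly met. Atp6v1c2 made up 54.5%, 59.5%, 60.7% and 58.7% of C subunit TPM in control, more than its partner Atp6v1c1 in every library, and 28.6%, 28.4%, 45% and 19.5% in bleomycin lungs, less than its partner in every library. Atp6v1b1 was a minor isoform in all groups, at 2.93% to 10.4% of B subunit TPM in control and 1.15% to 1.57% in bleomycin lungs. In the Ad-GFP group the Atp6v1c2 share was 54.6%, 27%, 39.8% and 23%, and b1r1 lay within the control range.

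The fourth a subunit, a3, is encoded by Tcirg1, whose symbol falls outside the rule and which serves the pump of osteoclasts and lysosomes. Tcirg1 was at 32.7, 30.4, 41.8 and 42.2 TPM in control and 118, 98.3, 64.8 and 86.2 TPM in bleomycin lungs (log2 fold change 1.28 with SE 0.23 and adjusted p = 0.00282). It made up 25.6% to 36.8% of the TPM of the 4 a subunits in control and 39.6% to 55.5% in bleomycin lungs, while Atp6v0a1 held 41.4% to 52.7% in control and 32.2% to 41.3% in bleomycin lungs. Of the 11 tested V-ATPase genes outside the rule, which include assembly and interaction genes, this subunit gene was the only one to rise and 0 fell. Over all genes 13.2% rose and 5.61% fell.

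**Figure D3:**
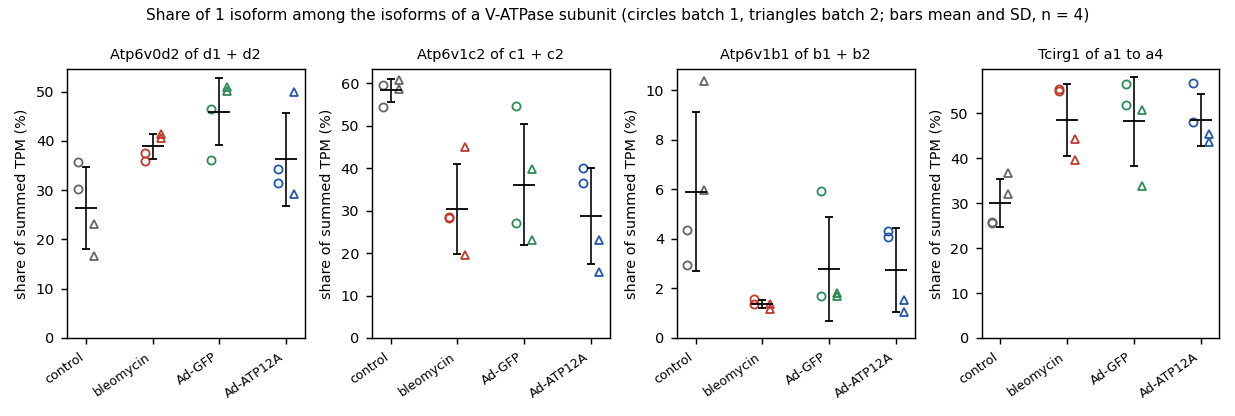
Share (%) that 1 isoform holds of the summed TPM of its subunit, by library and group (circles batch 1, triangles batch 2; bars mean and SD, n = 4): Atp6v0d2, Atp6v1c2, Atp6v1b1 and Tcirg1. Every control library holds at least 54.5% Atp6v1c2 and every bleomycin library at most 45.0%, and the Tcirg1 share is at most 36.8% in control and at least 39.6% in bleomycin lungs.

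The start regions of the pump's genes were searched for the E-box CACGTG and for the longer forms TCACGTGA and GTCACGTG. These longer forms make up the element bound by the lysosomal regulator TFEB and its relatives. The search is a description with no test. RefSeq windows on build GRCm38.p6, from 250 bases before to 50 after a start, were matched for 53 of the 78 genes, and for 18 V-ATPase genes with 21 windows. Both strands were searched, and CACGTG lies inside both longer forms. CACGTG was in 4 of the 21 V-ATPase windows and in 7.15% of all 32851 windows. TCACGTGA was in 3 of the 21 (Atp6v0d1, Atp6v0e and Atp6v1a) and in 0.974% of all windows, and GTCACGTG in 2 (Atp6v0b and Atp6v0d1) and in 2.25%. The sites are shown 5′ to 3′ on the gene's strand with the motif in capitals, since they are the sequence feature these windows share.
Atp6v0b, chr4:117887335-117887390, minus strand: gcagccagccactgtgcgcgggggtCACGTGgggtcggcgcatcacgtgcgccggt
Atp6v0d1, chr8:105566050-105566079, minus strand: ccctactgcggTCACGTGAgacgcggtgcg
Atp6v0e, chr17:26676387-26676416, plus strand: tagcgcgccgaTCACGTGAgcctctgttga
Atp6v1a, chr16:44139360-44139415, minus strand: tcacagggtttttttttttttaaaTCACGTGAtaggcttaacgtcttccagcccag

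The Atp6v0b stretch holds CACGTG 36 to 31 bases before the start, with another copy 18 to 13 bases before it, and the Atp6v1a copy lies 131 to 126 bases before. In Atp6v0d1 the motif spans the start and in Atp6v0e it lies just after it. Of these 4 genes, Atp6v0e rose in bleomycin lungs and Atp6v0d1, Atp6v0b and Atp6v1a did not pass. Among the other genes, CACGTG was in windows of Car6, Slc26a1 and Slc9a3, none of which reached 1 TPM.

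The surroundings of the pump in the cell were read from lists that were chosen with earlier results of these data known. Of 19 lysosome genes, 10 rose in bleomycin lungs and 0 fell, with a median of 0.56, where 13.2% of all genes rose, 5.61% fell and the median was 0.047; the lists that follow are read beside the same shares. They included Ctsb, a cathepsin protease (log2 fold change 1.38 with SE 0.28 and adjusted p = 0.00537), Hexa, a glycosidase (log2 fold change 0.84 with SE 0.15 and adjusted p = 0.003), and Tfe3, a relative of TFEB (log2 fold change 0.57 with SE 0.14 and adjusted p = 0.0148), whereas the membrane proteins Lamp1 (log2 fold change 0.17 with SE 0.13 and adjusted p = 0.362) and Lamp2 (log2 fold change 0.25 with SE 0.14 and adjusted p = 0.244) did not pass. Macrophage lists moved with them. Of 7 scar macrophage markers 5 rose, with summed levels of 1243 to 1391 TPM in control, 2849 to 4615 TPM in bleomycin, 2611 to 7559 TPM in Ad-GFP, 2626 to 6844 TPM in Ad-ATP12A. Of 4 tested osteoclast-like markers 3 rose (Acp5, Ctsk and Dcstamp), with sums of 43.1 to 66 TPM in control, 153 to 254 TPM in bleomycin, 139 to 311 TPM in Ad-GFP, 137 to 353 TPM in Ad-ATP12A, and no marker of these 2 lists was at 0 in all libraries. The part of these cell types in the rise of Atp6v0d2, Tcirg1, Atp6v0c and Hvcn1 was not tested.

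Beside the fall of Atp6v1c2 stand the markers of alveolar type 2 cells: 0 of 5 passed, but the median log2 fold change was −0.84 and the summed level was 20659 to 32572 TPM in control, 11356 to 27568 TPM in bleomycin, 6457 to 34195 TPM in Ad-GFP, 6031 to 31379.7 TPM in Ad-ATP12A. The summed markers of alveolar fibroblasts and of alveolar type 1 cells were lower in bleomycin lungs too, while those of macrophages were higher. A lower sum was therefore not particular to type 2 cells. No type 2 marker was at 0 in all libraries, and the part of any of these cells in the fall of Atp6v1c2 was not tested. The defining ionocyte gene Foxi1 was at 0.05 TPM or less and Foxi2 at 0 in every library, and the 7 ionocyte markers summed to 17.9 to 23.6 TPM in control, 11.4 to 21 TPM in bleomycin, 12.2 to 18.4 TPM in Ad-GFP, 8.32 to 18 TPM in Ad-ATP12A, with 0 of 2 tested markers passing.

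Among the carbonic anhydrases, 1 of 10 tested genes passed in bleomycin against control. Car13, a cytosolic enzyme, was at 5.44, 4.06, 3.91 and 3.57 TPM in control and 8.1, 6.47, 8.22 and 10.8 TPM in bleomycin lungs, each bleomycin library above each control library (log2 fold change 0.83 with SE 0.21 and adjusted p = 0.015; 0.53 in batch 1 and 1.14 in batch 2). That call ended without bleomycin b1r1 (adjusted p = 0.0529), and with the 3 low-Scgb1a1 libraries left out (adjusted p = 0.0823). Car2, the most abundant of the active enzymes, was at 72.1 ± 10.9 TPM in control and 73.3 ± 10.2 TPM in bleomycin lungs, with a log2 fold change of 0.027 and a 95% interval of −0.34 to 0.40. Car9, an enzyme of hypoxic cells, stayed between 1.19 and 2.54 TPM in the control and bleomycin libraries and did not pass.

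Car3, an enzyme of fat and muscle, had the largest difference of the 60 genes without passing. It was at 67.1, 15.6, 15.8 and 15 TPM in control and 0.52, 0.54, 21.7 and 8.82 TPM in bleomycin lungs, and the groups overlapped (log2 fold change −2.29 with SE 0.89 and adjusted p = 0.0869). The difference was −4.46 in batch 1 and −0.13 in batch 2, and the test of that contrast between batches gave an adjusted p of 0.111. Adipocyte markers moved in the same libraries: their sum was 0.77 and 0.86 TPM in bleomycin b1r1 and b1r2, where Car3 was at 0.52 and 0.54 TPM, and 75.8 TPM in control b1r1, where Car3 was highest. Of 4 tested adipocyte markers 1 fell and 0 rose, with sums of 18.6 to 75.8 TPM in control, 0.77 to 45.7 TPM in bleomycin, 2.16 to 19.2 TPM in Ad-GFP, 2.68 to 38.7 TPM in Ad-ATP12A, and no adipocyte marker was at 0 in all libraries. The 6 skeletal muscle markers summed to 12.1 to 22.6 TPM in control, 2.39 to 9.77 TPM in bleomycin, 4.43 to 13.8 TPM in Ad-GFP and 3.05 to 8.99 TPM in Ad-ATP12A. Their sum was 4.24 and 2.39 TPM in bleomycin b1r1 and b1r2, and 13.1 TPM in control b1r1. The part of fat and muscle cells in the Car3 values was not tested.

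Car14, a membrane enzyme, was at 25.6, 16.7, 21.9 and 13 TPM in control and 4.96, 9.12, 20.9 and 12 TPM in bleomycin lungs (−1.48 in batch 1 and −0.08 in batch 2; adjusted p = 0.127), so its low values were in batch 1. Car8, a related protein without enzyme activity, was at 59.7 ± 9.56 TPM in control and 35.5 ± 11 TPM in bleomycin lungs (−1.25 in batch 1 and −0.28 in batch 2; adjusted p = 0.103), and Car11, also inactive, was at 2.18 ± 0.585 TPM in control and 1.31 ± 0.478 TPM in bleomycin lungs (adjusted p = 0.136). Car5b, Car7 and Car15 did not pass either.

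Of the Slc4 family, the chloride-bicarbonate exchangers did not pass. Slc4a2, the widely expressed member, was at 36.1 ± 4.35 TPM in control and 35.5 ± 4.27 TPM in bleomycin lungs, with a 95% interval of −0.27 to 0.22 for the log2 fold change. Slc4a1, the band 3 protein of red blood cells, was at 5.69, 4.16, 8.94 and 1.63 TPM in control and 1.45, 1.28, 1.18 and 1.68 TPM in bleomycin lungs (log2 fold change −1.20 with SE 0.42 and adjusted p = 0.0592; −1.31 in batch 1 and −1.08 in batch 2), and control b2r2 was within the bleomycin range. All 7 tested red blood cell markers fell (median log2 fold change −1.94), and the 8 listed summed to 16522 to 50946 TPM in control, 5780.4 to 14088 TPM in bleomycin, 10444 to 23888 TPM in Ad-GFP, 9236 to 39812 TPM in Ad-ATP12A, with the lowest control sum also in b2r2. Slc4a1 passed after median-ratio scaling (adjusted p = 0.0479). The part of red blood cells in the Slc4a1 values was not tested.

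Of the sodium-bicarbonate carriers and relatives, 1 of 5 passed. Slc4a11, a transporter of protons and ammonia, was low at 0.48, 0.35, 0.3 and 0.82 TPM in control and 2.02, 1.33, 1.07 and 1.87 TPM in bleomycin lungs (log2 fold change 0.79 with SE 0.22 and adjusted p = 0.0233; 0.91 in batch 1 and 0.66 in batch 2). Its call ended without any 1 of 5 libraries (control b1r1, control b1r2, control b2r1, bleomycin b1r1, bleomycin b2r2), with an adjusted p from 0.0528 to 0.0823, and with the 3 low-Scgb1a1 libraries left out (adjusted p = 0.129). Slc4a5, an electrogenic carrier and the most abundant of these genes in control lungs, was at 18.3, 18.6, 26 and 21.1 TPM in control and 7.92, 7.05, 15.1 and 9.65 TPM in bleomycin lungs. Its groups did not overlap, but it did not pass (log2 fold change −1.05 with SE 0.38 and adjusted p = 0.0664), other than after quantile normalization (adjusted p = 0.0471). Slc4a4, Slc4a7 and Slc4a8 had log2 fold changes of −0.30, 0.34 and 0.47 and did not pass.

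Among the sodium-proton exchangers, Slc9a5 was at 2.35, 1.94, 2.46 and 2.43 TPM in control and 5.01, 4.82, 3.4 and 4.07 TPM in bleomycin lungs, without overlap. This had the smallest p of the 60 genes (log2 fold change 0.68 with SE 0.13 and adjusted p = 0.00437; 0.91 in batch 1 and 0.46 in batch 2), and its adjusted p was 0.00347 to 0.02 with each library left out. Slc9a4 went from 3.02 ± 0.596 to 5.18 ± 1.45 TPM (adjusted p = 0.143) and Slc9a2 from 1.33 ± 0.251 to 1.02 ± 0.0862 TPM (adjusted p = 0.376). Slc9a3, the exchanger of kidney and gut, did not exceed 0.16 TPM.

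The 4 exchangers of organelles did not pass. Slc9a7, of the trans-Golgi network, differed in sign between batches (−0.79 in batch 1 and 0.52 in batch 2), and Slc9a8 and Slc9a9 had log2 fold changes of 0.032 and 0.41.

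Slc9a3r2, a scaffold that binds Slc9a3 and Cftr and is also made by endothelium, was at 192, 224, 261 and 187 TPM in control and 105, 103, 181 and 147 TPM in bleomycin lungs, and fell (log2 fold change −0.71 with SE 0.22 and adjusted p = 0.037; −0.99 in batch 1 and −0.43 in batch 2). The call ended without any 1 of 6 libraries (control b1r1, control b1r2, control b2r1, bleomycin b1r1, bleomycin b1r2, bleomycin b2r2), with an adjusted p from 0.0742 to 0.112, and with the 3 low-Scgb1a1 libraries left out (adjusted p = 0.152). Capillary markers moved the same way, with 3 of 6 lower and sums of 678 to 1079.9 TPM in control, 449 to 682 TPM in bleomycin, 387 to 712 TPM in Ad-GFP, 295 to 552 TPM in Ad-ATP12A, none of them at 0 in all libraries. Their part in the fall of Slc9a3r2 was not tested. The other scaffold, Slc9a3r1, was at 52.1 ± 4.72 TPM in control and 61.3 ± 4.33 TPM in bleomycin lungs and did not pass. Of 8 genes for partners of Slc9 and Slc4 carriers, 0 passed by limma, and their smallest adjusted p was that of Ahcyl2 (log2 fold change −0.80 with SE 0.34 and adjusted p = 0.115).

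Among the Slc26 anion transporters, 2 of 6 rose. Slc26a4 (pendrin), a chloride-iodide-bicarbonate exchanger of airway epithelium, was at 5.22, 6.16, 1.74 and 1.08 TPM in control and 9.2, 11.2, 17.7 and 16.7 TPM in bleomycin lungs, the largest rise of the 17 (log2 fold change 1.84 with SE 0.43 and adjusted p = 0.0113). The groups did not overlap, but the control libraries of batch 1 were above those of batch 2, and the difference was 0.74 in batch 1 and 2.93 in batch 2. The batch difference did not pass (difference 2.19, adjusted p = 0.105). It was not called with the 3 low-Scgb1a1 libraries left out, at an adjusted p of 0.0857.

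Slc26a6, which exchanges chloride for bicarbonate and oxalate, was at 2.13, 1.9, 2.19 and 2.16 TPM in control and 5.78, 3.28, 3.81 and 7.22 TPM in bleomycin lungs (log2 fold change 0.91 with SE 0.19 and adjusted p = 0.00567; 0.84 in batch 1 and 0.99 in batch 2). All control libraries lay within 1.9 to 2.19 TPM, and the bleomycin libraries were wider apart at 3.28 to 7.22 TPM. Slc26a9, a chloride channel of airway and type 2 cells, was at 32.2, 17.4, 11.1 and 9.06 TPM in control and 12.4, 13.4, 16.7 and 16.4 TPM in bleomycin lungs and did not pass (−0.83 in batch 1 and 0.67 in batch 2). Slc26a2, a sulfate transporter and the most abundant of the family in control lungs, was at 19.2 ± 2.07 TPM in control and 17.7 ± 4.37 TPM in bleomycin lungs (adjusted p = 0.527), and Slc26a10 and Slc26a11 did not pass.

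Of the channels, Hvcn1, the voltage-gated proton channel of phagocytes and B cells, was at 23.7, 23.5, 21 and 20.9 TPM in control and 41.6, 33.2, 38.3 and 66.9 TPM in bleomycin lungs, without overlap (log2 fold change 0.93 with SE 0.25 and adjusted p = 0.0202; 0.64 in batch 1 and 1.23 in batch 2). The highest value was in bleomycin b2r2. The call ended without any 1 of 3 libraries (control b2r1, bleomycin b1r1, bleomycin b2r2), with an adjusted p from 0.0551 to 0.0698, and with the 3 low-Scgb1a1 libraries left out (adjusted p = 0.0648). Of 4 B cell markers 0 passed, and the median log2 fold change was −0.90, with sums of 111 to 165 TPM in control, 41 to 123 TPM in bleomycin, 30.4 to 61.9 TPM in Ad-GFP, 34.3 to 129 TPM in Ad-ATP12A. Cftr, the chloride and bicarbonate channel of epithelia, was at 5.04, 5.73, 3.51 and 2.21 TPM in control and 0.96, 1.3, 3.9 and 2.66 TPM in bleomycin lungs (−1.59 in batch 1 and 0.15 in batch 2; adjusted p = 0.212), low in the 2 batch 1 bleomycin libraries and within the control range in batch 2.

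**Figure D4:**
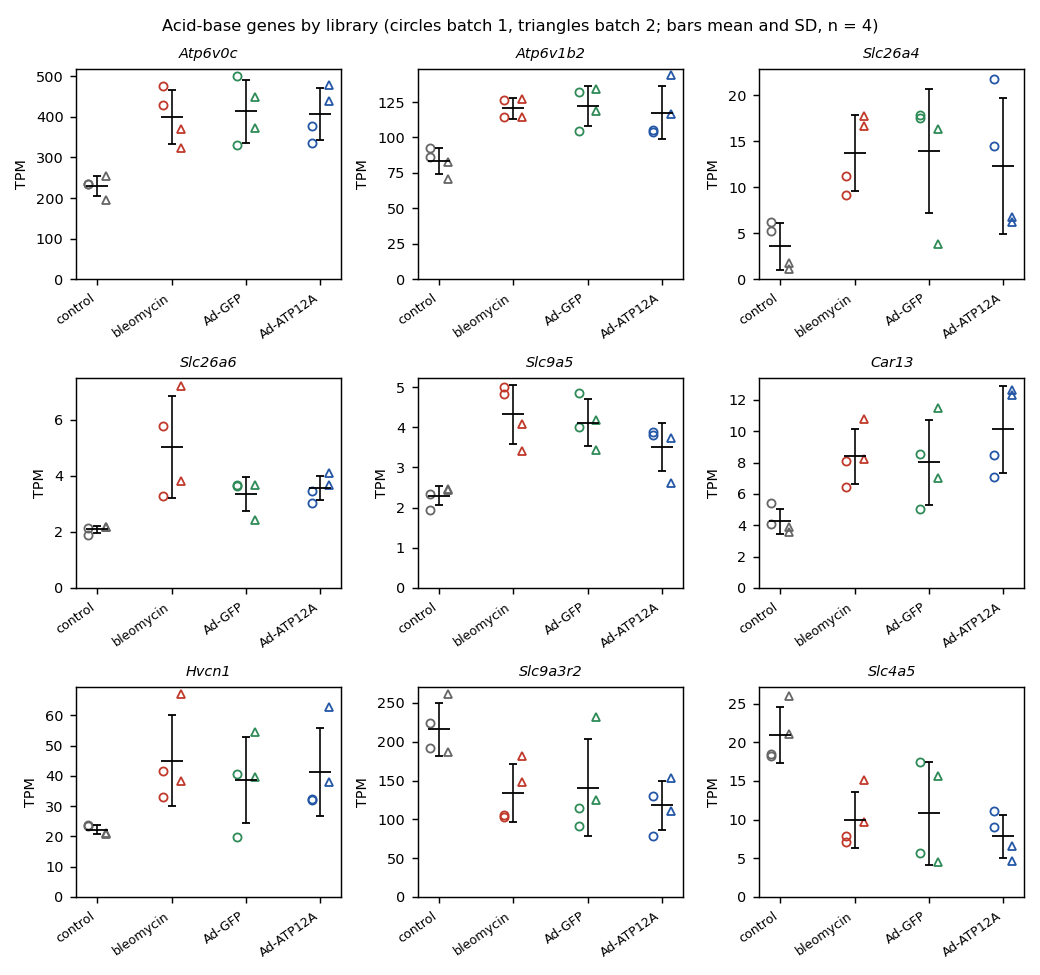
TPM by library in the 4 groups for 9 genes (circles batch 1, triangles batch 2; bars mean and SD, n = 4; axes start at 0). The 4 control libraries of Atp6v0c, Atp6v1b2, Slc26a6 and Slc9a5 lie below all 4 bleomycin libraries, and Slc26a4 and Hvcn1 spread widely within the bleomycin groups.

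In lungs given both bleomycin and Ad-GFP, the ring subunit Atp6v0c, the isoform Atp6v0d2, the B subunit Atp6v1b2, pendrin and Slc9a5 rose against control, and Atp6v0e2 and Slc9a3r2 fell. In all, 11 of 60 passed, 9 higher and 2 lower, where 13.7% of all genes passed, 9.16% higher and 4.52% lower. For 8 genes the ranges lay above control and for 4 below, beside 15.3% of all genes without overlap (10.8% above and 4.49% below). The split was 7 and 4 after quantile normalization and 7 and 3 after median-ratio scaling. The count was 6 without control b1r1, 5 without control b1r2, 3 without Ad-GFP b1r2 and 5 without Ad-GFP b2r2. Shares of all genes that passed under other scalings or with libraries left out are not given. With the 3 low-Scgb1a1 libraries left out, 9 passed, all higher; of the 11 calls, 5 ended there: Slc26a4 (adjusted p = 0.0818), Car13 (0.0548), Atp6v1d (0.112) and both lower genes. These values use the same 4 control libraries as above, so they are set beside the bleomycin values and not taken as a repeat of them.

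Atp6v0c was at 329.9, 502, 373 and 449.5 TPM in the Ad-GFP libraries (log2 fold change 0.83 with SE 0.16 and adjusted p = 0.00609) and Atp6v1b2 at 104, 132, 119 and 134 TPM (log2 fold change 0.55 with SE 0.12 and adjusted p = 0.0109). Atp6v0d2 was at 45.9, 89.7, 97.7 and 98.9 TPM (log2 fold change 1.54 with SE 0.35 and adjusted p = 0.0135), with b1r1 far below the other 3, and the call ended without Ad-GFP b1r2 (adjusted p = 0.0526). Slc26a4 was at 17.9, 17.5, 16.4 and 3.81 TPM (log2 fold change 1.71 with SE 0.43 and adjusted p = 0.0206), where b2r2 was within the control range, and the call ended without Ad-GFP b1r2 (adjusted p = 0.0654). Slc9a5 was at 4, 4.85, 4.18 and 3.44 TPM (log2 fold change 0.63 with SE 0.13 and adjusted p = 0.00949). The pump list had 6 higher and 1 lower of 22, with a median of 0.28. Over all genes 9.16% were higher and 4.52% lower, with a median of 0.027. After quantile normalization or median-ratio scaling the pump list had 4 higher and 2 lower, and Atp6v1d and Atp6v1h no longer passed. Its median was then 0.20 or 0.25, beside −0.017 or −0.0015 over all genes. In batch 1 alone it had 6 higher and 0 lower, and in batch 2 alone 0 higher and 0 lower. Shares of all genes that passed in these fits are not given. Atp6v0e2 fell, at 18.9, 11.6, 16.8 and 10.9 TPM against 21.6 to 26.9 TPM in control (log2 fold change −0.66 with SE 0.19 and adjusted p = 0.0375), a call that ended without any 1 of 6 libraries (control b1r1, control b1r2, control b2r1, control b2r2, Ad-GFP b1r2, Ad-GFP b2r2), with an adjusted p from 0.055 to 0.134, and with the 3 low-Scgb1a1 libraries left out (adjusted p = 0.0924). Slc9a3r2, at 114, 91.4, 232 and 125 TPM, lay just under the threshold (log2 fold change −0.69 with SE 0.22 and adjusted p = 0.04997), with b2r1 within the control range. Its call ended without any 1 of 13 libraries (control b1r1, control b1r2, control b2r1, bleomycin b1r1, bleomycin b1r2, bleomycin b2r1, bleomycin b2r2, Ad-GFP b1r1, Ad-GFP b1r2, Ad-GFP b2r2, Ad-ATP12A b1r1, Ad-ATP12A b2r1, Ad-ATP12A b2r2), with an adjusted p from 0.0506 to 0.163, and with the 3 low-Scgb1a1 libraries left out (adjusted p = 0.162). Calls of Atp6v0c, Slc9a5 and Atp6v1b2 held with each library left out. Atp6v1c2 missed the threshold (log2 fold change −1.09, adjusted p = 0.0544; 0.0397 after quantile normalization and 0.0442 after median-ratio scaling), as did Hvcn1 (0.69, 0.0819) and Slc26a6 (0.48, 0.102).

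In lungs given bleomycin and Ad-ATP12A, Car13, Atp6v0c, Atp6v1b2, pendrin and Slc9a5 rose against control, and Atp6v1c2, Slc9a3r2, Car11, Atp6v0e2, Slc4a5 and Car14 fell. Of the 60, 19 passed, 11 higher and 8 lower, beside 22.8% of all genes, 13.3% higher and 9.49% lower. For 9 genes the ranges lay above control and for 8 below, beside 24.8% of all genes without overlap (14.0% above and 10.8% below). The count was 12 without control b1r2, 10 without Ad-ATP12A b2r1 and 8 without Ad-ATP12A b2r2. It was 11 without the 3 libraries low in Scgb1a1, none of which is in the Ad-ATP12A group. Shares of all genes that passed with libraries left out are not given. The same 4 control libraries served here too. Xist was high in more libraries of this group than of control, and with a term for Xist in the fit 17 of the 19 calls were kept.

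Car13 was at 8.5, 7.05, 12.6 and 12.3 TPM in the Ad-ATP12A libraries (log2 fold change 1.06 with SE 0.21 and adjusted p = 0.00384), and Atp6v0c at 377, 335, 439 and 479.6 TPM (log2 fold change 0.82 with SE 0.16 and adjusted p = 0.00402). Atp6v1c2 was at 31.5, 40.6, 19.3 and 16.4 TPM, the lowest values being in batch 2 (log2 fold change −1.50 with SE 0.35 and adjusted p = 0.00937). Slc4a5 was at 9.09, 11.1, 4.62 and 6.57 TPM (log2 fold change −1.36 with SE 0.38 and adjusted p = 0.0207) and Car14 at 5.46, 8.91, 7.69 and 8.6 TPM (log2 fold change −1.20 with SE 0.34 and adjusted p = 0.0236). The Slc4a5 call ended without any 1 of 3 libraries (control b2r1, Ad-ATP12A b2r1, Ad-ATP12A b2r2), with an adjusted p from 0.0545 to 0.0717. The Car14 call ended without any 1 of 5 libraries (control b1r1, control b1r2, Ad-ATP12A b1r1, Ad-ATP12A b2r1, Ad-ATP12A b2r2), with an adjusted p from 0.0566 to 0.0735. Car11 was at 1.4, 0.55, 0.45 and 0.69 TPM against 1.36 to 2.75 TPM in control (log2 fold change −0.85 with SE 0.21 and adjusted p = 0.012). Of the Slc4 exchangers Slc4a3 fell (log2 fold change −0.38 with SE 0.12 and adjusted p = 0.0357). That call ended without any 1 of 5 libraries (control b1r2, control b2r1, control b2r2, Ad-ATP12A b2r1, Ad-ATP12A b2r2), with an adjusted p from 0.0575 to 0.117, and with the 3 low-Scgb1a1 libraries left out (adjusted p = 0.104). The pendrin call ended without control b2r2 (adjusted p = 0.0515) or without Ad-ATP12A b1r1 (adjusted p = 0.0593), that of Slc9a5 without any 1 of 5 libraries (control b1r1, control b1r2, Ad-ATP12A b1r1, Ad-ATP12A b1r2, Ad-ATP12A b2r1), with an adjusted p from 0.0539 to 0.0922, and that of Atp6v0e2 without any 1 of 3 libraries (control b2r1, Ad-ATP12A b2r1, Ad-ATP12A b2r2), with an adjusted p from 0.0573 to 0.0673. With the 3 libraries left out, pendrin (0.0571), Atp6v0e2 (0.0683), Slc4a5 (0.0505) and Car14 (0.0719) also had adjusted p over the threshold. The pump list had 6 higher and 2 lower of 22, with a median of 0.26. Over all genes 13.3% were higher and 9.49% lower, with a median of 0.0047. After quantile normalization or median-ratio scaling the pump list had 4 higher and 2 lower, and Atp6v1h and Atp6v0d1 no longer passed. Its median was then 0.17 or 0.24, beside −0.032 or −0.014 over all genes. In batch 1 alone it had 4 higher and 0 lower, and in batch 2 alone 3 higher and 3 lower. Shares of all genes that passed in these fits are not given. Calls of Car13, Atp6v0c, Atp6v1c2, Slc9a3r2, Car11 and Atp6v1b2 held with each library left out. Car11, Slc4a5 and Car14 passed here and not in the other 2 groups, but the direct comparison of the adenovirus groups below did not separate them.

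Whether the pump transgene altered these genes is asked by Ad-ATP12A against Ad-GFP, where both groups had bleomycin and a virus. Of the acid-base genes, 0 of 60 passed by limma and 0 passed under each alternative setting. An unadjusted p under 0.05 was found for 0 of the 60, beside 413 of all 17003 genes. Over all genes 0.00588% passed, which is Atp12a alone (log2 fold change 3.54 with SE 0.42 and adjusted p = 0.0144). The log2 fold changes ran from −0.55 (Atp6v0d2) to 0.32 (Car7). For 52 of the 60 genes the 95% interval lay within 1 log2 unit of 0 on both sides, and the median distance from estimate to interval end was 0.37. For Atp6v0d2, Atp6v1c2, Car14, Slc4a5, Cftr, Slc4a1, Slc26a4 and Car3 the interval reached beyond 1, so a difference of 1 log2 unit in these could not be told from 0 with 4 libraries a group.

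The 3 smallest unadjusted p belonged to Slc4a3, Car7 and Slc9a8, each with an adjusted p of 0.999 by limma. Slc4a3, a chloride-bicarbonate exchanger, was at 8.46, 7.06, 7.8 and 7.39 TPM with Ad-GFP and 6.73, 6.84, 6.58 and 5.13 TPM with Ad-ATP12A (log2 fold change −0.25, 95% interval −0.51 to 0.0086), the only one of the 60 whose groups did not overlap, beside 0.77% of all genes. Car7 was at 0.725 ± 0.34 and 1.14 ± 0.268 TPM and Slc9a8 at 14.6 ± 1.88 and 12.7 ± 1.32 TPM. Atp6v0d2 was at 37.1, 46.1, 43.2 and 114 TPM with Ad-ATP12A, with b2r2 above the other 3, and its range overlapped that of Ad-GFP. For the V-ATPase as a whole the median log2 fold change was −0.041 over 22 genes, beside −0.015 over all genes.

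Ad-GFP against bleomycin sets lungs given a virus beside lungs whose labels name none. The virus, its GFP gene and any step of giving it cannot be told apart here. In this comparison 0 of 60 passed by limma, beside 0.0118% of all genes. Against 287 of all 17003 genes with an unadjusted p under 0.05 stood 1 of the 60. That 1 gene was Slc26a6, at 5.78, 3.28, 3.81 and 7.22 TPM in bleomycin and 3.69, 3.64, 2.43 and 3.67 TPM in Ad-GFP lungs (log2 fold change −0.43, adjusted p = 1.00), with overlapping ranges. The next smallest p were those of Slc9a4 (5.18 ± 1.45 and 3.38 ± 1.06 TPM) and Atp6v1b1 (1.75, 1.83, 1.33 and 1.79 and 6.56, 2.28, 2.17 and 2.32 TPM), the latter with every Ad-GFP library above every bleomycin library, beside 0.806% of all genes without overlap. For 51 of the 60 genes the 95% interval lay within 1 log2 unit of 0.

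**Figure D5:**
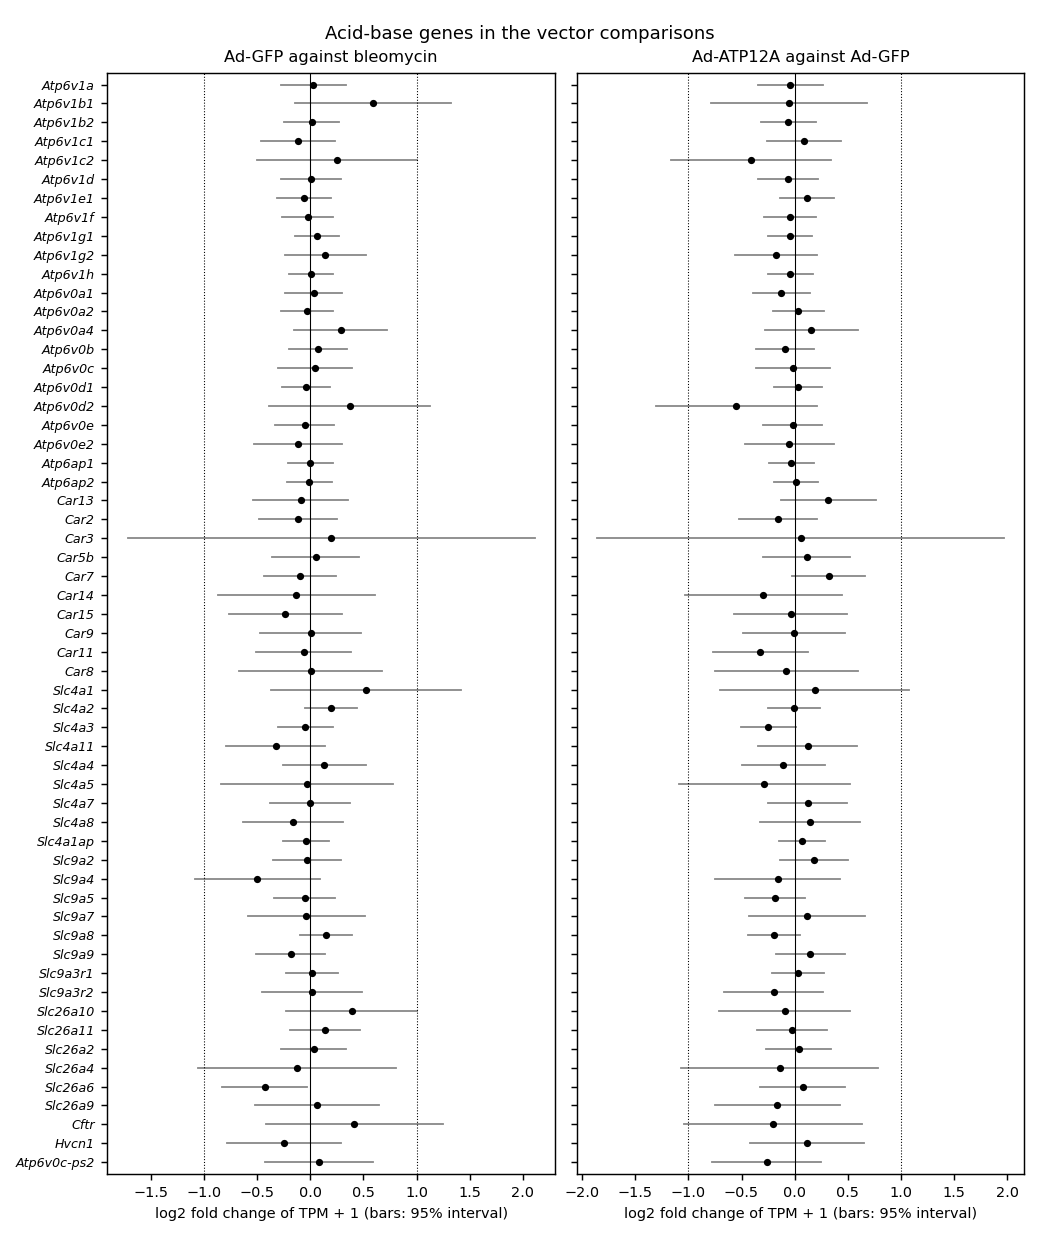
Log2 fold change of TPM + 1 with 95% intervals from limma for 58 of the 60 genes tested, in Ad-GFP against bleomycin (left) and Ad-ATP12A against Ad-GFP (right); dotted lines mark −1 and 1. Points lie between −0.50 and 0.59 on the left and between −0.55 and 0.32 on the right, and the interval of Car3 is the widest.

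Between the batches, 6 of 60 passed, 5 higher in batch 2 and 1 lower, beside 18.5% of all genes, 16.4% higher and 2.11% lower. Among the 5 were Atp6v0a2 (log2 fold change 0.31 with SE 0.08 and adjusted p = 0.0205), Atp6v1a (log2 fold change 0.32 with SE 0.10 and adjusted p = 0.0394) and Slc9a9 (log2 fold change 0.33 with SE 0.11 and adjusted p = 0.045), and the lower gene was Atp6v1g1 (log2 fold change −0.26 with SE 0.068 and adjusted p = 0.0219). Atp6v1g1 was at 175 to 266 TPM in the batch 1 libraries and 176 to 199.8 TPM in those of batch 2. The direction of the split rests on scaling, which moved the median of all genes by about 0.1: from 0.094 with the deposited values to −0.0070 after quantile normalization. Under quantile normalization or median-ratio scaling 0 were higher and 3 lower in batch 2. Without the 3 libraries low in Scgb1a1, 0 passed, and with 1 library left out the count ran from 1 (without bleomycin b1r2) to 12 (without control b1r1 or control b2r2). It was 2 without bleomycin b2r2 and 3 without any 1 of the 4 Ad-GFP libraries or of Ad-ATP12A b1r1, b2r1 and b2r2. Shares of all genes that passed under other scalings or with libraries left out are not given.

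Whether the bleomycin difference itself varied between batches was tested as an interaction: 0 of 60 passed by limma, where 0.0647% of all genes did (0.0471% higher and 0.0176% lower in batch 2), and 15 had an unadjusted p under 0.05. With array weights 3 passed, and 1 passed without Ad-GFP b2r1 or without Ad-GFP b2r2. The smallest adjusted p was that of Slc9a7 (difference 1.30, adjusted p = 0.0672), followed by Atp6v0b (adjusted p = 0.0706) and Slc26a9 (adjusted p = 0.0884). For 15 of the 60 genes the log2 fold change had opposite signs in the 2 batches. No share of all genes stands beside this 15 or the 15 with an unadjusted p under 0.05. Neither count is therefore read as particular to these genes. For Ad-ATP12A against Ad-GFP the same test passed for 0 of 60, with 2 at an unadjusted p under 0.05, and for 0% of all genes.

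Other acid-handling genes outside the 78 stand beside these results. Of 4 genes for lactate and proton export, 2 rose in bleomycin lungs, beside 13.2% of all genes: Ldha, lactate dehydrogenase A (log2 fold change 0.80 with SE 0.19 and adjusted p = 0.0116), and Bsg, the chaperone of the lactate carriers (log2 fold change 0.28 with SE 0.091 and adjusted p = 0.0462), while the carriers Slc16a1 and Slc16a3 did not pass. Of 5 proton-sensing receptors and acid-sensing channels, 2 rose, beside the same 13.2%, among them Gpr65, a receptor of immune cells (log2 fold change 1.14 with SE 0.22 and adjusted p = 0.00449), from 3.86 ± 0.181 to 9.94 ± 2.46 TPM. Gpr65 also rose in the Ad-GFP and Ad-ATP12A groups against the same control libraries.

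The 18 genes that were not tested include the epithelial forms best known from kidney, stomach or gut. Slc26a3, Slc26a5, Slc26a7, Slc26a1, Slc9a3, Car5a, Car6, Car10, Slc4a10, Atp6ap1l, Atp6v1e2 and Atp6v1g3 stayed at or under 0.49 TPM in every library. Car1 of red blood cells reached 0.85 TPM, Slc4a9 0.92 TPM, Slc26a8 0.96 TPM and Car12 1.05 TPM. Atp6v0c-ps1 and Atp6v1fnb reached 0.38 and 0.25 TPM.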

How the data were processed

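Whole-lung RNA from 16 mouse libraries was prepared from 0.6 ug of RNA, per the labels' protocols. The authors deposited a single table of log2(TPM + 1) values per gene and library; STAR, RSEM and the GRCm39 (mm39) build are named in the submitters' processing notes, without versions. TPM keeps no read depth, so depth and counting error are unknown. Gene symbols came from a GENCODE M21 name table, which matched 52093 gene identifiers and left 1554 unmatched. Promoter windows came from RefSeq on GRCm38.p6, another build than that of the values, and were matched by symbol.

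TPM was recovered by inverting the log2 scale. Genes reaching 1 TPM in 4 or more libraries were tested with limma 3.58.1 (R 4.3.3, statmod 1.5.0) on log2(TPM + 1), where the pseudocount of 1 understates changes of low genes. The fit held 4 group means and a batch term over all 16 libraries, with a trended prior and Benjamini-Hochberg adjustment over 17003 genes at 0.05. The test of the batch dependence used a mean for each group and batch. Values within a batch are differences of means without a test. The procedure was tested on simulated data. Tables and figures used Python 3.11.15, pandas 2.3.3 and matplotlib 3.10.9.

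The members, gene lists, tests and alternatives were chosen with earlier results of these data known. Genes given with values in every library or group were up to 12 each way with the smallest p among those past the threshold in bleomycin against control, those past the threshold in the virus and batch comparisons or the 3 with the smallest p where none passed, the most abundant gene of each role in control, Cftr, Hvcn1 and pairs of subunit isoforms. Other genes named with values, among them Car3, Car14, Car11, Slc4a1, Slc4a5, Slc9a7, Slc26a9, Atp6v0e2 and those past the threshold in the adenovirus groups only, were chosen after their values were seen. Alternatives were another pseudocount, no filter or a mean of at least 5 TPM, quantile normalization, median-ratio scaling, array weights, a fit lacking the batch term, a replicate block, a term for Xist, a robust prior, each batch alone, the compared groups alone, each library left out, and leaving out the 3 libraries under 1000 TPM of Scgb1a1. Values of some genes that were tested and counted are not reported here.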

Additional observations from a re-analysis of the deposited data

Results flagged for a closer look

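Within groups of 4 libraries, 19 values of 58 genes stood apart from the other 3 libraries by more than Dixon's 95% critical value for the gap over the range. Chance gives about 1 in 20 groups such a value, which is 11.6 of the 232 groups tested.

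Among control libraries, control b2r1 held Atp6ap1 at 156 TPM, with the other 3 libraries at 130 to 133 TPM, Atp6v0e2 at 26.9 TPM, with the other 3 libraries at 21.6 to 22.2 TPM, Atp6v1f at 137 TPM, with the other 3 libraries at 108 to 111 TPM, and Atp6v1g1 at 186 TPM, with the other 3 libraries at 175 to 176 TPM. This is 1 of the 3 libraries low in Scgb1a1. The library control b2r2 held Car5b at 3.84 TPM, with the other 3 libraries at 5.29 to 5.58 TPM, and Slc26a10 at 2.93 TPM, with the other 3 libraries at 0.57 to 0.95 TPM. The highest Car3 value was in control b1r1: it had Car3 at 67.1 TPM, with the other 3 libraries at 15 to 15.8 TPM.

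In the bleomycin group, bleomycin b2r2 held Atp6v1c1 at 92.1 TPM, with the other 3 libraries at 60.3 to 60.9 TPM, and Atp6v1g2 at 3.46 TPM, with the other 3 libraries at 5.66 to 6.02 TPM. It too was low in Scgb1a1. The library bleomycin b2r1 held Atp6v1b1 at 1.33 TPM, with the other 3 libraries at 1.75 to 1.83 TPM, and Atp6v1c2 at 49.3 TPM, with the other 3 libraries at 22.4 to 24.3 TPM.

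With Ad-GFP, b1r1 had Atp6v1b1 at 6.56 TPM, with the other 3 libraries at 2.17 to 2.32 TPM. Of the others, b1r2 had Atp6v0e at 231 TPM, with the other 3 libraries at 167 to 178 TPM, b2r1 had Slc26a6 at 2.43 TPM, with the other 3 libraries at 3.64 to 3.69 TPM, and b2r2 had Slc26a4 at 3.81 TPM, with the other 3 libraries at 16.4 to 17.9 TPM. With Ad-ATP12A all 4 such values were in b2r2. Ad-ATP12A b2r2 held Atp6v0d2 at 114 TPM, with the other 3 libraries at 37.1 to 46.1 TPM, Slc4a3 at 5.13 TPM, with the other 3 libraries at 6.58 to 6.84 TPM, Slc9a4 at 5.98 TPM, with the other 3 libraries at 1.91 to 2.4 TPM, and Slc9a5 at 2.61 TPM, with the other 3 libraries at 3.73 to 3.89 TPM.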

How the results depend on the processing

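The shares of all genes that passed under the settings below are not given beside the counts. Counts of the 60 genes that passed moved by over 1.5 times under some settings, and where a count moved the cause was not tested. For bleomycin against control (17) they were 11 without a filter, 34 with array weights, 0 in batch 2 alone and 5 without the 3 libraries low in Scgb1a1. For Ad-GFP against control (11) they were 6 without a filter, 6 without the batch term, 24 with array weights, 0 in batch 2 alone and 6 with only the compared groups. For Ad-ATP12A against control (19) they were 8 without a filter, 12 in batch 1 alone, 10 in batch 2 alone and 11 without the 3 libraries. For batch 2 against batch 1 (6) they were 3 after quantile normalization, 3 after median-ratio scaling, 16 with array weights and 0 without the 3 libraries. The bleomycin difference between batches (0) had 3 with array weights. With 1 library left out the ranges were 5 to 24, 3 to 16, 8 to 19, 1 to 12 and 0 to 1 in that order. The comparisons of Ad-GFP with bleomycin and of Ad-ATP12A with Ad-GFP stayed at 0 in all settings run.

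With a replicate block, 12 genes passed for bleomycin, 9 for Ad-GFP and 16 for Ad-ATP12A against control, and 0 in both virus comparisons. The numbers did not pair the libraries: of 12 correlations between same-numbered libraries' deviations, 1 was over 0.1, and they ran from −0.16 to 0.21. Of 45 values named against control, 45 kept their call with a pseudocount of 0.1, 39 after quantile normalization, 39 after median-ratio scaling and 21 without the 3 libraries, and 0 changed direction under any setting run. The 45 leave out the bleomycin calls of Atp6v1d and Atp6ap2, which both ended under either scaling. With 4 libraries a group and no depth, small differences and low genes are the least certain.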
